A study of Homo sapiens with 2 samples.

Results

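The genes described here are 10 surface marker, cadherin and protocadherin genes of fibroblasts, chosen by name: THY1, NT5E, CD44, FAP, CAV1, MCAM, CDH2, CDH11, PCDH18 and PCDH10. All 10 had a value among the 12353 genes measured, as compared with 59.8% of the 20056 protein-coding genes in RefSeq. The 10 genes were chosen with earlier results of these data known, so this count is a description. BJ is an established line of human skin fibroblasts, and its nascent RNA was read by GRO-seq (global run-on followed by sequencing) in cells grown untreated in medium with 10% serum. Nuclei were allowed to extend transcripts that RNA polymerase had already begun for 5 min at 30 °C with a brominated nucleotide, and the labelled RNA was captured and sequenced. A value therefore reports transcribing polymerase over a gene, not mature mRNA or protein at the cell surface. Both libraries, called a and b, belong to the single group of untreated BJ cells, so there is no comparison between conditions, and no p-value was computed.

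Fibroblasts are recognised by proteins at their surface rather than by a single defining gene. THY1 (CD90) and NT5E (CD73) are held in the outer leaflet of the membrane by a lipid anchor, CD44 binds the matrix polymer hyaluronan, FAP is a membrane protease, caveolin-1 from CAV1 coats small membrane pits, and MCAM (CD146) is an adhesion molecule best known from endothelial cells and pericytes. Cadherins join neighbouring cells through calcium-dependent contacts, and their tails bind catenins that link them to actin. N-cadherin (CDH2) and cadherin-11 (CDH11) are the cadherins most often used to mark mesenchymal cells, whereas E-cadherin (CDH1) marks epithelium. Protocadherins share the extracellular cadherin repeats but lack the catenin-binding tail of the classical cadherins.

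The libraries give FPKM, fragments per kilobase of gene scaled to library size. The median gene stood at 11.8 FPKM in library a, against 11.7 FPKM in library b, and the highest 25% of genes began at 22.2 and 22.1 FPKM. Levels below are means ± SD over both libraries (n = 2). Read depth is unknown, and no counting interval is given. The fibroblast label was checked against marker genes. All 14 fibroblast markers examined had a value and 12 of them lay above the median gene, led by COL1A1 (649 ± 48.1 FPKM), VIM (539 ± 9.28 FPKM) and COL1A2 (353 ± 7.53 FPKM), with decorin, DCN, lowest at 7.34 ± 0.495 FPKM.

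The surface marker genes ranged more widely than the cadherin genes, and 9 of the 10 genes were transcribed above the median gene, against 50% of all genes. CAV1 was highest and MCAM lowest, a 15.8-fold range of mean FPKM. The median over the 10 genes was 24.5 FPKM, 2.10 times the median of all genes (11.7 FPKM). The highest 25% of genes held 6 of the 10 and the highest 10% held 4, namely CAV1, CD44, THY1 and PCDH18. The limit of the highest 25% ran between CDH11, just inside at 22.4 FPKM, and FAP, just outside at 21.4 FPKM. Their order was the reverse in library b, where FAP was inside and CDH11 outside. The genes were chosen by name as fibroblast surface and cadherin genes, with earlier results of these data known. Their standing is therefore a description of these cells and not a test.

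**Figure D1:**
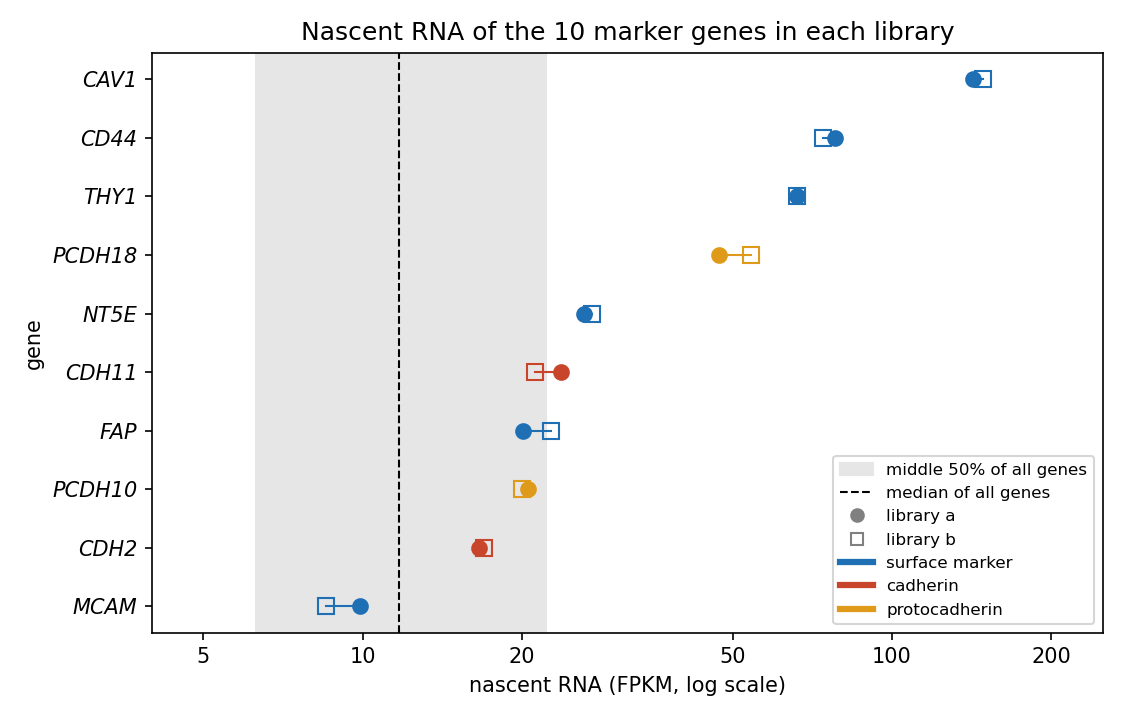
Nascent RNA of the 10 genes in FPKM on a log axis, one row per gene from highest to lowest, with filled circles for library a and open squares for library b. The dashed line is the median of all genes and the grey band the middle 50% of them. CAV1 sits at 142 and 149 FPKM, and MCAM is the only gene left of the median line, at 9.90 and 8.52 FPKM.

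Promoter sequences are shown for the 3 highest of the genes that have an entry in the RefSeq promoter table (CAV1, CD44 and PCDH18) and for the lowest of them, MCAM, because GRO-seq reads transcription that starts there. Entries were matched for 6 of the 10 genes, and THY1, FAP, CDH11 and PCDH10 are named only. Each sequence runs from 250 bases before an annotated start to 50 bases after it, 5′ to 3′ on the strand of the gene, on build GRCh38.p14. Capitals mark matches on either strand to the TATA box TATAAA, the GC box GGGCGG, the CCAAT box CCAAT, the cAMP response element TGACGTCA and the AP-1 motif TGANTCA, in which N is any base. For CAV1 the most upstream of 3 annotated starts is shown.
CAV1, chr7:116524759-116525058, plus strand: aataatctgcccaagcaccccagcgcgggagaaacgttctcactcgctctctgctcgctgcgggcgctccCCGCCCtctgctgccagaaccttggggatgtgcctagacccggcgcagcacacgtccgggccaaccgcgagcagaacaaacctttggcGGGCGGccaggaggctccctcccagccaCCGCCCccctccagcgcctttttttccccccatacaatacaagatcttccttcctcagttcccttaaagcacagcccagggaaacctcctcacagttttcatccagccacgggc
CD44, chr11:35138921-35139220, plus strand: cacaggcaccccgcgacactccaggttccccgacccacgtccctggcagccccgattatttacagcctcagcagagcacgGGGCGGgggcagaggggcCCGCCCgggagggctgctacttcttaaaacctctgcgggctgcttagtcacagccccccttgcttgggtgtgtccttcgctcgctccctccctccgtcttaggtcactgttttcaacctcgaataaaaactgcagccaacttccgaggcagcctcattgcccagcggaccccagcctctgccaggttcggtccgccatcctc
PCDH18, chr4:137532445-137532744, minus strand: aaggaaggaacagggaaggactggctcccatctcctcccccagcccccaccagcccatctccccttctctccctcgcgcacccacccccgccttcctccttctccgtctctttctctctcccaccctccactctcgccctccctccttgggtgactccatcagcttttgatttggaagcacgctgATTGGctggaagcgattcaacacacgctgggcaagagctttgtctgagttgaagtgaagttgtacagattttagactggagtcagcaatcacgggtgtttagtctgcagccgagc
MCAM, chr11:119317081-119317380, minus strand: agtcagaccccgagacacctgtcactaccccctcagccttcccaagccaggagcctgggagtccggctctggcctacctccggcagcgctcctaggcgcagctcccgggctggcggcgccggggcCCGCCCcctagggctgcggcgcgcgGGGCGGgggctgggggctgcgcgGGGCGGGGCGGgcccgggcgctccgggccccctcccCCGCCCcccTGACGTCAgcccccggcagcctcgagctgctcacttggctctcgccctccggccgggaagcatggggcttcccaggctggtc
The CAV1 sequence held 3 GC boxes, CD44 held 2, PCDH18 held none and a single CCAAT box, and MCAM held 5 GC boxes and 1 cAMP response element. A pair of the GC boxes of MCAM overlapped by 1 base, and no other matches overlapped. Among all 35116 promoters in the table, 45.0% held the GC box, 34.6% the CCAAT box, 1.85% the cAMP response element, 11.5% the TATA box and 7.71% the AP-1 motif. None of these 4 sequences held the TATA box or the AP-1 motif, which says only that those letters are not in the window. An annotated start of CDH2 that is not shown here held both the TATA box and the AP-1 motif. GC content was 62.3% for CAV1, 63.3% for CD44, 57.0% for PCDH18 and 78.0% for MCAM, against a median of 58.7% over all promoters. MCAM, the lowest of the 4 genes, had the highest GC content of these 4 sequences. Among the matched entries not shown, NT5E had 75%, starts of CDH2 had 67% and 40.7%, and other starts of CAV1 had 61.7% and 71%. No relation between GC content and level was tested. A match to a motif is a description of the sequence, not a binding site.

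CAV1, which encodes the main coat protein of caveolae, was the most strongly transcribed of the 10 genes. It had 142 FPKM in library a and 149 FPKM in library b (146 ± 4.57). This placed it above 98.6% of all genes. Both libraries of CAV1 lay above both libraries of every other gene of the set, and its level was 1.91 times that of the next gene, CD44. The neighbouring gene CAV2, whose product forms mixed oligomers with caveolin-1, had 62.6 and 65.9 FPKM. CAV1 exceeded CAV2 2.27-fold, with a log2 ratio of 1.18 ± 0.00735 that was almost the same in each library.

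The cavins coat the same membrane pits from the cytoplasm, and the genes for cavin-1 and cavin-3 stood near CAV1. CAVIN1, required for caveolae to form, had 166 FPKM in library a and 142 FPKM in library b (154 ± 16.7), and CAVIN3 averaged 127 ± 9.29 FPKM. CAV1 and CAVIN1 were not separated: CAVIN1 was higher in library a and CAV1 was higher in library b. This last pair was chosen after its values were seen. Of the 10 caveola coat genes listed, 9 had a value and 7 lay above the median gene, with a group median of 61.5 FPKM. CAVIN2 was lowest at 2.43 ± 0.219 FPKM. The muscle caveolin gene CAV3 stood at 63.9 and 59.0 FPKM, but its annotated span in RefSeq overlaps the oxytocin receptor gene OXTR, which had 117 and 115 FPKM. The sources used here do not say whether strand was counted, so the reads of CAV3 and OXTR cannot be told apart. CAV3 and OXTR were named after their values were seen. CAV3 counts among the 7 genes above the median gene, and its mean of 61.5 FPKM is the group median.

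CD44, the hyaluronan receptor, was second. It had 78.1 FPKM in library a and 74.1 FPKM in library b (76.1 ± 2.79), above 96.4% of all genes. The other measured genes of the hyaluronan group were all lower. CEMIP2, a surface gene linked to hyaluronan breakdown, averaged 24.0 ± 1.91 FPKM and the synthase HAS3 23.0 ± 1.65 FPKM, while TNFAIP6, which modifies hyaluronan, was lowest at 4.19 ± 0.389 FPKM. In that group 10 of 12 genes had a value and 9 lay above the median gene, with a median of 19.7 FPKM. The ERM proteins tie the tail of CD44 to actin. Ezrin, EZR, averaged 49.9 ± 5.08 FPKM and moesin, MSN, 39.1 ± 1.32 FPKM, whereas radixin, RDX, was at 9.28 ± 1.65 FPKM and NF2, the related merlin gene, at 11.3 ± 0.721 FPKM. In RefSeq the span of CD44 also holds the antisense gene CD44-AS1 and the small nucleolar RNA gene SNORD164, neither of which had a value of its own.

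THY1 had 66.3 FPKM in both libraries, above 95.6% of all genes. Identical values to 2 decimals were rare in the table, occurring for 35 genes (0.283%), so the zero spread of THY1 is no measure of its precision. The antisense gene USP2-AS1 overlaps THY1 in RefSeq and had no value. Among immunoglobulin superfamily adhesion genes, the family to which THY1 and MCAM belong, THY1 was highest by a wide margin. The next were ICAM1, a leukocyte ligand, at 20.6 ± 0.764 FPKM and the neural adhesion gene L1CAM at 20.1 ± 2.24 FPKM, and the lowest was NECTIN1 at 1.16 ± 0.0636 FPKM. Of the 23 genes in that family list, 16 had a value, 7 lay above the median gene and the median was 10.6 FPKM.

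NT5E encodes the surface enzyme that turns AMP into adenosine. It had 26.2 FPKM in library a and 27.1 FPKM in library b (26.6 ± 0.672), above 80.6% of all genes. It was the highest gene of the extracellular adenosine pathway, just ahead of ADK, the kinase that removes adenosine inside cells (25.2 ± 1.1 FPKM). Adenosine deaminase, ADA, followed at 13.8 ± 1.15 FPKM, and ENPP1, which also produces AMP outside cells, was lowest at 1.51 ± 0.0212 FPKM. The pathway list had values for 8 of 13 genes, 3 of them above the median gene, and its median of 5.31 FPKM was below that of all genes. THY1 and NT5E both need the enzymes that attach and trim lipid anchors. All 9 of these genes had a value, 4 above the median gene, from PGAP2 (53.1 ± 4.78 FPKM), GPAA1 (26.7 ± 0.629 FPKM) and PIGT (15.6 ± 1.93 FPKM) down to the transamidase gene PIGK (3.27 ± 0.566 FPKM).

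FAP, a serine protease of activated fibroblasts, had 20.1 FPKM in library a and 22.7 FPKM in library b (21.4 ± 1.81), above 73.8% of all genes. It stood 4.10-fold above DPP4 (CD26), its closest relative, encoded nearby in the genome, which had 5.13 FPKM in both libraries (log2 ratio 2.03 ± 0.122). The cytoplasmic family members DPP8 and DPP9 averaged 19.1 ± 1.38 and 14.0 ± 0.474 FPKM. In this family 6 of 8 genes had a value, FAP was the highest and DPP4 the lowest of them, and 3 lay above the median gene. An uncharacterised noncoding gene overlaps FAP in RefSeq and had no value.

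MCAM was the only gene of the set below the median of all genes. It had 9.90 FPKM in library a and 8.52 FPKM in library b (9.21 ± 0.976), above 39.4% of all genes, with an SD of 10.6% of its mean. CDH2, the next gene above it, was 1.82 times higher (log2 ratio 0.86 ± 0.177), and the values of these 2 genes did not overlap. Because MCAM also marks endothelial cells and pericytes, their markers are given beside it; in bulk cultures, fewer cells of a type and less RNA per cell cannot be told apart. Of 10 endothelial markers 3 had a value and none of them lay above the median gene: CLDN5 at 7.88 ± 0.141 FPKM, ESAM at 3.56 ± 0.226 FPKM and ROBO4 at 2.78 ± 1.25 FPKM. They summed to 13.4 FPKM (library a) and 15.0 FPKM (library b). The defining genes PECAM1, CDH5 and VWF had no value. Pericyte and smooth muscle markers had values for 6 of 10 genes, summing to 82.9 and 83.2 FPKM. The list was led by smoothelin, SMTN (31.8 ± 0.255 FPKM), the actin gene ACTA2 (27.0 ± 0.212 FPKM) and CSPG4, also known as NG2 (11.4 ± 1.13 FPKM), with NOTCH3 lowest at 2.15 ± 0.0212 FPKM and no value for RGS5, KCNJ8, ABCC9 or DES.

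Another 20 mesenchymal surface genes were examined, of which 18 had a value, 13 lay above the median gene and 11 were in the highest 25%, with a median of 29.3 FPKM. The highest were the TWEAK receptor gene TNFRSF12A at 235 ± 3.64 FPKM, endosialin, CD248, at 112 ± 3.23 FPKM and the tetraspanin CD63 at 83.9 ± 0.375 FPKM. The complement regulator CD55 was lowest at 3.68 ± 0.120 FPKM. TNFRSF12A was above CAV1, whereas CD248 and CD63 lay between CAV1 and CD44.

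**Figure D2:**
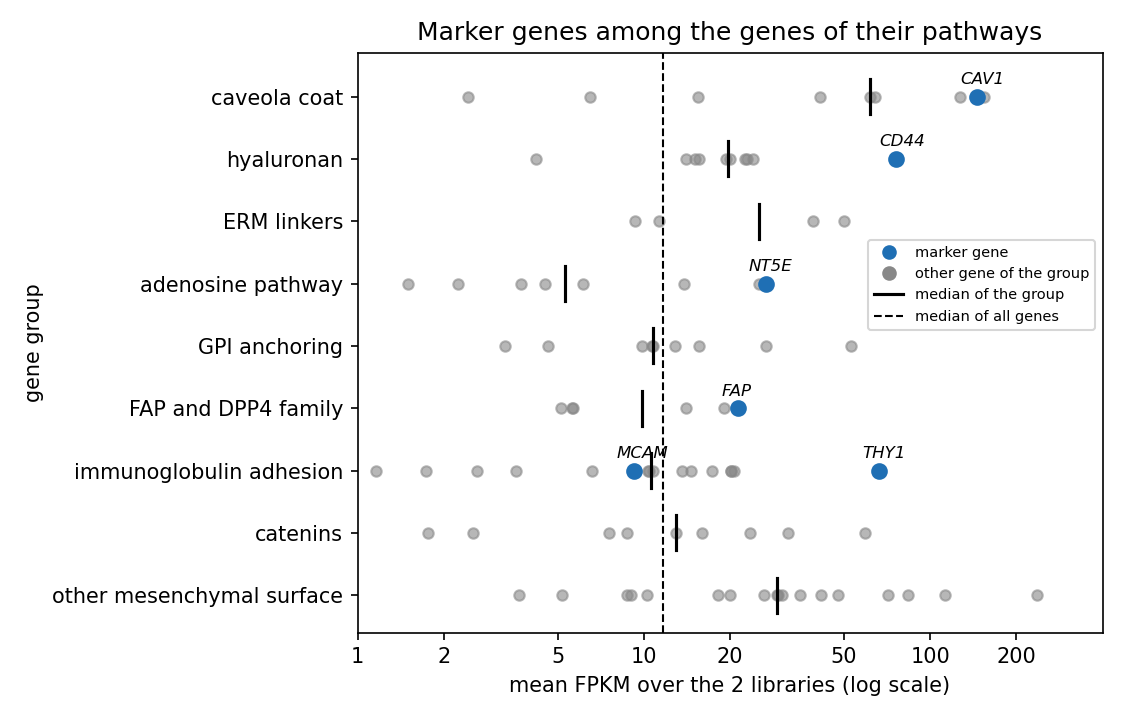
Mean FPKM over both libraries on a log axis for the genes of 9 groups, one row per group, with the marker genes in blue, other genes in grey, a short bar at each group's median and a dashed line at the median of all genes. CD44 (76.1 FPKM), THY1 (66.3 FPKM), NT5E (26.6 FPKM) and FAP (21.4 FPKM) are each the highest gene of their row, while MCAM (9.21 FPKM) lies left of the dashed line.

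The 4 cadherin and protocadherin genes were among the 5 highest of the cadherin superfamily genes examined. The 60 such genes included no clustered protocadherin. Of them 21 had a value, or 35.0%, against 59.8% of RefSeq protein-coding genes, and 6 lay above the median gene. PCDH18, CDH11, PCDH10 and CDH2 were 4 of those 6. The other 17 genes with a value had a median of 4.47 FPKM, and only FAT1 and CLSTN1 among them exceeded the median gene. Together the 4 genes held 45.1% (library a) and 47.1% (library b) of the summed FPKM of the 21, which is a share of values per length and not of reads. Members and lists were chosen with earlier results of these data known, so these places and shares are a description.

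**Figure D3:**
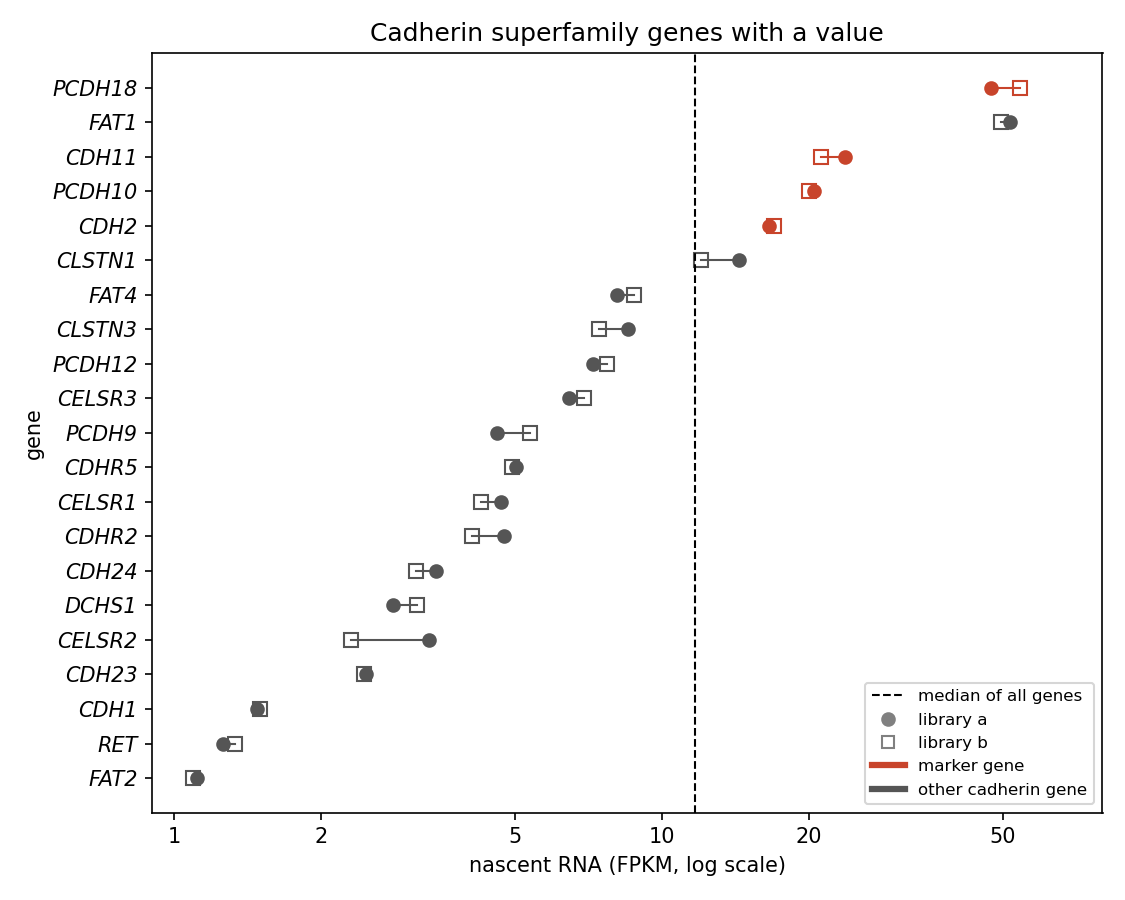
Nascent RNA in FPKM on a log axis for the 21 cadherin superfamily genes with a value, with filled circles for library a, open squares for library b, red for the 4 marker genes and grey for the others. The 4 marker genes and FAT1 all lie right of the dashed line at the median of all genes in both libraries, whereas CDH1 sits far to the left at 1.48 and 1.5 FPKM.

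CDH2, N-cadherin, had 16.6 FPKM in library a and 17.0 FPKM in library b (16.8 ± 0.297), above 64.9% of all genes. Of the 5 type I classical cadherins examined, the only other one with a value was CDH1, E-cadherin, at 1.49 ± 0.0141 FPKM. CDH2 stood 10.6-fold above it (log2 ratio 3.41 ± 0.0126), a comparison made after these values were seen. CDH3, CDH4 and CDH15 had no value. The antisense gene CDH2-AS1 overlaps CDH2 in RefSeq and had none either. Markers of epithelium and keratinocytes had values for 2 of 10 genes, CDH1 and the keratin gene KRT10 (38.2 ± 3.87 FPKM), summing to 42.4 FPKM (library a) and 37.0 FPKM (library b), and the epithelial genes EPCAM, KRT5 and KRT14 had none.

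CDH11, a type II cadherin of mesenchyme and bone, had 23.7 FPKM in library a and 21.1 FPKM in library b (22.4 ± 1.81), above 75.4% of all genes. The only other type II cadherin with a value, of 13 examined, was CDH24 at 3.29 ± 0.219 FPKM. CDH5, the endothelial VE-cadherin, was among the 11 without one. CDH2 was lower than CDH11 in both libraries, with a log2 ratio of CDH2 over CDH11 of -0.51 in library a and -0.31 in library b (mean -0.41 ± 0.141). The fold of this difference varied between the libraries, but its direction did not, and the values of these genes did not overlap. None of the 7 desmosomal cadherin genes, which join epithelial cells, had a value.

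PCDH18, a non-clustered protocadherin, was the highest of the 4. It had 47.2 FPKM in library a and 54.3 FPKM in library b (50.7 ± 5.00), above 93.2% of all genes. It could not be separated from FAT1, a giant cadherin (51.7 and 49.6 FPKM), since FAT1 was higher in library a and PCDH18 in library b. PCDH10, a protocadherin studied mainly in the nervous system, had 20.5 FPKM in library a and 20.0 FPKM in library b (20.3 ± 0.368), above 71.9% of all genes. PCDH18 exceeded PCDH10 2.49-fold, with a log2 ratio of 1.20 in library a and 1.44 in library b (mean 1.32 ± 0.168). Of the 12 non-clustered protocadherins examined, the only others with a value were PCDH12 at 7.46 ± 0.361 FPKM and PCDH9 at 4.97 ± 0.537 FPKM. Both lay below PCDH10 in each library. Because PCDH10 is known from neurons, markers of that lineage were read beside it: 5 of 8 neuronal genes had a value, led by L1CAM, the synapsin gene SYN1 (8.29 ± 1.04 FPKM) and SYT1 (5.90 ± 0.566 FPKM), with RBFOX3 lowest at 4.06 ± 0.141 FPKM. They summed to 45.2 FPKM (library a) and 39.9 FPKM (library b), and their part in the level of PCDH10 was not tested. The neuronal genes SNAP25, TUBB3 and NCAM1 had no value.

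The larger and atypical cadherins were mostly lower than the marker genes. FAT1 led them at 50.7 ± 1.5 FPKM, followed by the calsyntenin CLSTN1 at 13.2 ± 1.68 FPKM and FAT4 at 8.43 ± 0.481 FPKM, and FAT2 was lowest at 1.1 ± 0.0141 FPKM. Of that list of 13 genes 10 had a value and 2 lay above the median gene. Among the remaining CDH-series genes, CDHR5 (4.97 ± 0.0566 FPKM), CDHR2 (4.42 ± 0.474 FPKM) and CDH23 (2.46 ± 0.0141 FPKM) were the 3 of 10 with a value. The catenins and linkers that hold cadherins to actin ranged widely, with a list median of 13.0 FPKM, below both CDH2 and CDH11. The 3 highest and the lowest are given. Beta-catenin, CTNNB1, averaged 31.8 ± 1.47 FPKM, p120-catenin, CTNND1, 23.5 ± 3.42 FPKM, and vinculin, VCL, which also serves matrix adhesions, 59.1 ± 1.63 FPKM. Plakoglobin, JUP, which takes part in desmosomes, was lowest at 1.77 ± 0.00707 FPKM. Of 12 such genes 9 had a value and 5 lay above the median gene.

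Markers of 2 further lineages were read as well. Of 8 leukocyte genes only CD34, which is also found on stem and endothelial cells, had a value (5.71 ± 0.00707 FPKM), and PTPRC, the pan-leukocyte CD45 gene, had none. Of 7 melanocyte genes 4 had a value, PMEL (22.4 ± 2.23 FPKM), MITF (9.91 ± 1.44 FPKM), MLANA (4.53 ± 0.750 FPKM) and SLC45A2 (2.79 ± 0.148 FPKM), with a sum of 41.6 FPKM in library a and 37.7 FPKM in library b. The melanocyte genes TYR, TYRP1 and DCT had no value. The part of leukocytes or melanocytes in the levels of the 10 genes was not tested.

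**Figure D4:**
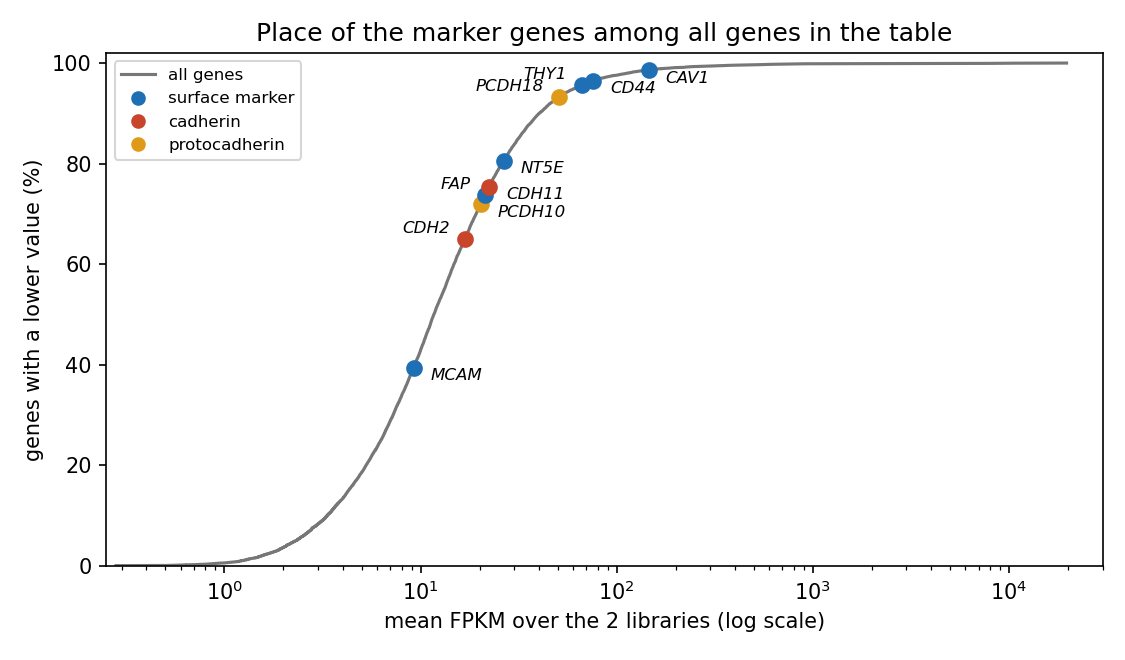
Share of all genes with a lower value, in percent, against mean FPKM over both libraries on a log axis. The grey curve is all 12353 genes and coloured points are the 10 genes, which run from MCAM at 39.4% to CAV1 at 98.6%.

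Placed in order, the genes ran CAV1, CD44, THY1, PCDH18, NT5E, CDH11, FAP, PCDH10, CDH2 and MCAM. Neighbours were called separated where both libraries of the higher gene exceeded both libraries of the lower. By that measure 7 of the 9 neighbouring pairs were separated. The exceptions were CDH11 with FAP, with log2 ratios of 0.24 (library a) and -0.10 (library b), and FAP with PCDH10, at -0.03 and 0.18. Of all 45 pairs among the 10 genes these were the only 2 that were not separated, so FAP has no fixed place relative to CDH11 or PCDH10. With 2 libraries this compares spread only, and an exact sign-flip test of a ratio cannot go below p = 0.5. The order also depends on the gene length behind each FPKM, which the sources used here do not state.

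The difference between the libraries was small for every one of the 10 genes. After the median log2 difference of all genes (-0.02, library b over a) was subtracted on the log2(FPKM + 0.1) scale, none of the 10 differed by more than 1.5-fold, against 2.16% of all genes. At most the factor was 1.16, for PCDH18, which was higher in library b. MCAM followed at 1.15 with the higher value in library a, and FAP at 1.14 with the higher value in library b. Only PCDH18, MCAM, FAP and CDH11 differed by more than 1.1-fold, 4 of 10 genes against 48.9% of all genes, so the share is near that of all genes. The remaining 6 lay within 1.06-fold. As deposited, 5 genes had more FPKM in library b, 4 had more in library a and THY1 was equal.

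**Figure D5:**
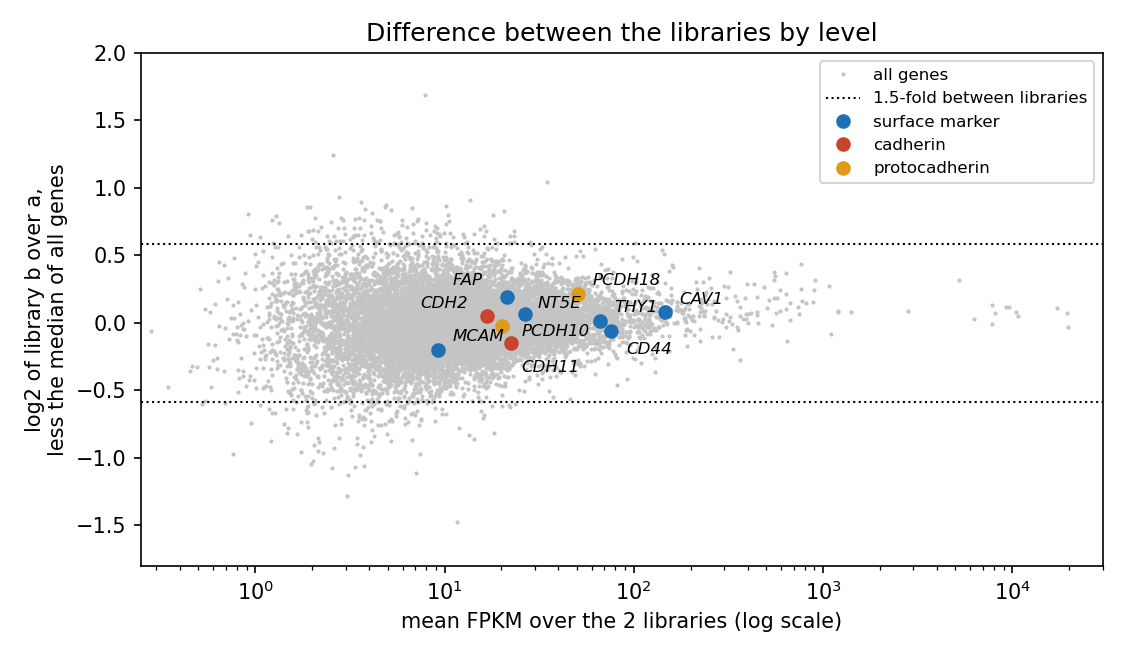
Log2 of library b over library a less the median of all genes, against mean FPKM over both libraries on a log axis, with all genes in grey and the 10 genes in colour. Dotted lines mark 1.5-fold, and the 10 genes lie between them, from -0.20 for MCAM to 0.22 for PCDH18.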

How the data were processed

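GRO-seq values from 2 libraries of untreated BJ cells were analysed. The deposited table holds FPKM, which the authors computed per Ensembl gene. The submitters' processing notes name Bowtie2, HTSeq and hg19 but neither their versions nor their roles. The gene length, library total and minimum behind the FPKM, the use of strand and the handling of multiply mapped reads are not stated in what was available. No value was 0. Depth is unknown: in 0.001-wide bins of the log2 ratio between the libraries, the fullest held 20 of 3520 genes above 20 FPKM, too few to read relative depth. Per the labels the replicates are biological, but column names end in letters, so columns a and b were tied to the group only.

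Identifiers were paired with symbols through an Ensembl name table (12202 of 12353 matched). RefSeq (GRCh38.p14) gave gene classes, overlaps and promoters. Its build is not that of the values, so its positions served only for the overlaps and promoters. No gene lengths were taken from it. Means, SDs, ranks and log2(FPKM + 0.1) ratios were computed in Python 3.11.15 with pandas 2.3.3, after a check on simulated data. The members, lists and motifs were chosen with earlier results of these data known, and the motifs with the promoters in view. Beside the 10 genes, the 3 highest and the lowest measured gene of each list and the genes of fixed pairs are named; other names are marked or had no value. With 1 group, no gene was named for likeness of pattern. Alternatives were a pseudocount of 1, a minimum mean FPKM of 1, other scalings, nuclear protein-coding genes as the background, and each library left out.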

Additional observations from a re-analysis of the deposited data

How the results depend on the processing

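With either library left out, with a minimum mean FPKM of 1, and with nuclear protein-coding genes alone as the background, 9 of the 10 genes stayed above the median gene and 6 were in the highest 25%. With library a left out, those 6 held FAP in place of CDH11. The median of the 10 genes lay between 24.4 and 24.9 FPKM. No setting put any of the 10 past 1.5-fold between the libraries, although with a pseudocount of 1 the number of all genes past it was 118 (0.955%), against 267 with 0.1. With a pseudocount of 1 the log2 ratio of CAV1 over CAV2 came to 1.17, against 1.18 with 0.1. That of FAP over DPP4 came to 1.87, against 2.03. A larger constant shrinks ratios, and more so those of low values. With single libraries the ratios ranged from 1.17 to 1.18 for CAV1 over CAV2 and from 1.95 to 2.12 for FAP over DPP4. No paired analysis was possible because the series has 1 group. Precision is limited by having 2 libraries of unknown depth.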
